A study of Mus musculus with 6 samples.

Results

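Acetylation of histone H3 at lysine 27 (H3K27ac) was profiled in single mouse retinas, and the intergenic regions described here are the stretches of the genome that carried this mark recurrently while lying far from any annotated gene. The peaks of 6 deposited peak lists on chromosomes 1 to 19, X and Y were merged into 39942 union regions (coordinates of the mouse build GRCm38). Of these, 812 were selected on the peak calls themselves and on their position: a peak of 4 or more lists covered at least 1 bp, no GENCODE transcription start site (TSS) lay within 10 kb of either edge, and no GENCODE gene body overlapped. There were 353 regions called in all 6 lists, 244 in 5 and 215 in 4. Since the peak calls chose the regions, how often each was called is given as a description and was not tested.

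All mice were wild type and 3 months old at the first pressure elevation. In the 4xIOP group (n = 3 retinas) the pressure of 1 eye was raised to 30 mmHg for 1 h, 4 times, and the control group (n = 3 retinas) consisted of contralateral eyes without elevation. Tissue was collected on day 2 after the last elevation. The protocol shared by the series also describes injection of dasatinib or of vehicle, and the labels of these 6 samples name neither. Each list was called from 1 retina, which holds all retinal cell types, so that fewer cells of a type and less signal per cell cannot be told apart. In 4 of the 6 samples (control replicates 1 and 2, 4xIOP replicates 1 and 2) the name carried inside the deposited list is that of the other group. The samples were kept as labelled. The names exchange only these 4 samples and not replicate 3 of either group. Following them would therefore regroup the lists and not only reverse a direction. Every direction, size, p-value and count between the groups holds for the labels only, and the grouping by names was not tried.

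H3K27ac is placed on nucleosomes by the acetyltransferases p300 and CBP and is found at active promoters and active enhancers. An enhancer is a stretch of DNA that binds transcription factors and raises the activity of a promoter that can lie far away, so acetylated regions outside of genes are commonly read as candidate enhancers. In the retina, most nuclei belong to rod photoreceptors, whose enhancers are bound by the homeodomain factors CRX and OTX2 and by the rod factor NRL. Immediate early genes such as Fos, Nr4a1 and Npas4 are switched on within minutes of neuronal activity or stress, and in neurons they are controlled by distal enhancers as well as by their promoters.

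The sequences below are the 300 bp centred on the summit of the highest peak of 9 regions, taken from the RefSeq GRCm38 genome, plus strand. The first 5 lie beside immediate early genes, the next 2 beside genes of photoreceptors and eye field progenitors, and the last 2 are the highest region of unique sequence and the highest region of a repeated cluster. Capitals mark every match, on either strand, to the 14 motifs spelled out further on.

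Region downstream of Fos, chr12:85485634-85485933: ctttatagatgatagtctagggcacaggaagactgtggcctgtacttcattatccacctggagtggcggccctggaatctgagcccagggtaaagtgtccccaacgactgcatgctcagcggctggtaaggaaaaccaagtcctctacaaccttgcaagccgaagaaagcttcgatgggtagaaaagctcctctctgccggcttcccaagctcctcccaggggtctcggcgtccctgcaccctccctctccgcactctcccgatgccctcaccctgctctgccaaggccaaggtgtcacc
Region upstream of Fos, chr12:85454878-85455177: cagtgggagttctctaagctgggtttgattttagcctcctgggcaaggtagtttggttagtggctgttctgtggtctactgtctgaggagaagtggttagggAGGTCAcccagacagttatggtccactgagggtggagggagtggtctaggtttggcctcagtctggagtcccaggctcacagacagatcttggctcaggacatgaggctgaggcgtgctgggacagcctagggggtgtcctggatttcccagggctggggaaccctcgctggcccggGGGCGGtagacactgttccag
Region downstream of Btg2, chr1:134061261-134061560: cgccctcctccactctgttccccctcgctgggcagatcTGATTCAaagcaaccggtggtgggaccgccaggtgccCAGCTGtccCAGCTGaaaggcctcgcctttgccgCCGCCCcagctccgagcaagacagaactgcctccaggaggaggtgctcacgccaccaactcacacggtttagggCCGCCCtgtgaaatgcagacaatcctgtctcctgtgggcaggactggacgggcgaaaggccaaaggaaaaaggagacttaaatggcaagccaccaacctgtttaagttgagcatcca
Region upstream of Nr4a1, chr15:101242442-101242741: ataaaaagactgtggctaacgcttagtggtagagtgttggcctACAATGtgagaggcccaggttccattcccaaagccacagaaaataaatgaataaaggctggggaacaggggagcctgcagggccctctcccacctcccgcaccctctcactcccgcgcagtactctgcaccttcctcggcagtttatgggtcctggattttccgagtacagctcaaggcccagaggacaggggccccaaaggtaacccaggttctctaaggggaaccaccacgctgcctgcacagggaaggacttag
Region downstream of Npas4, chr19:4975982-4976281: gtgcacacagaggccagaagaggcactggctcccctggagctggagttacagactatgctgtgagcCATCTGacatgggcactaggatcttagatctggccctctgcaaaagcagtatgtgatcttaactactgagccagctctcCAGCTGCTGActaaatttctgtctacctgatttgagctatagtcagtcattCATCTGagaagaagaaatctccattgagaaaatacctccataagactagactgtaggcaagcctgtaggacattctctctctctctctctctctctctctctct
Region upstream of Thrb, chr14:17632938-17633237: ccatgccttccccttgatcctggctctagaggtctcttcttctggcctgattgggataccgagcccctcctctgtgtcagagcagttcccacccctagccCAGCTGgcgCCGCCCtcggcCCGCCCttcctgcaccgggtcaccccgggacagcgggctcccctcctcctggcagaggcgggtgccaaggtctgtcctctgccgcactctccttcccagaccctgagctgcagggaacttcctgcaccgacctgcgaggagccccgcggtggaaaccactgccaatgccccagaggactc
Region downstream of Lhx2, chr2:38379119-38379418: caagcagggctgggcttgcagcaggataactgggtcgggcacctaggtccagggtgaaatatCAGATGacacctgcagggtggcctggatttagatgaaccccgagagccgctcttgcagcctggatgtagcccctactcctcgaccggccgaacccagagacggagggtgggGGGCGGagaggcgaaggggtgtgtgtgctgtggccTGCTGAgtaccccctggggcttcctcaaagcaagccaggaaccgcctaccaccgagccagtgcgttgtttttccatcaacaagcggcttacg
Region nearest to Gdi2, chr13:3373031-3373330: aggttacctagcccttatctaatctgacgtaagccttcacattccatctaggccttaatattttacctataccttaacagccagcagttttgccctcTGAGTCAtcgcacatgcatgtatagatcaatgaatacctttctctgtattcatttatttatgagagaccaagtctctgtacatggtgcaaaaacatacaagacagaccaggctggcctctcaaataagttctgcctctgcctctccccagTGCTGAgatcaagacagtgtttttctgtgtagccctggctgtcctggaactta
Repeated region nearest to Ezh2, chr6:47682178-47682477: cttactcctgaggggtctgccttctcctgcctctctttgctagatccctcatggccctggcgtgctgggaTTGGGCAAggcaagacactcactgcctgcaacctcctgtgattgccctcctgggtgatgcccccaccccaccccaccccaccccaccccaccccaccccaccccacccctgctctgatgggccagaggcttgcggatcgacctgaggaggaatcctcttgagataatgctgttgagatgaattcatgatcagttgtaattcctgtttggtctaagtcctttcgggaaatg

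The window downstream of Fos held 0 matches, whereas the window of Btg2 held an AP-1 site, 2 GC boxes and 2 symmetric E-boxes. An AP-1 site, the sequence bound by FOS and JUN dimers, was also found in the window nearest to Gdi2, together with an NRL core. The Npas4 window held 2 neurogenic E-boxes, 1 symmetric E-box and 1 NRL core, the last pair sharing bases at the summit, and the Lhx2 window an NRL core, a neurogenic E-box and a GC box.

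The regions were compact. Their median width was 788 bp (quartiles 574.5 and 1071.5 bp, range 247 to 2392 bp), and 239 of 812 (29.4%) were 1000 bp or wider. The median distance from the nearest GENCODE TSS was 20.3 kb, 105 regions lay more than 50 kb away and 24 more than 100 kb. The summits of the lists fell within 200 bp of each other in 388 regions (47.8%), and the median spread between the outermost summits was 214 bp. The 3 widest regions lay 14.96 kb from Proser2 (2392 bp), 71.8 kb from Ypel2 (2345 bp) and 41.4 kb from Chd7 (2172 bp), which encodes a chromatin remodeller that binds enhancers. The 3 farthest from a TSS lay 239877 bp (nearest protein-coding gene Tenm4), 227262 bp (Pik3c3, chromosome 18) and 187763 bp (Dmrta1) away, and the first and last of them had repeated summit sequence.

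The position criterion depends on the annotation. RefSeq places a TSS inside 35 of the 812 regions, within 1 kb of 74 and within 10 kb of 210, and a RefSeq transcript overlaps 157. At 62 of the 74 regions with a RefSeq TSS within 1 kb, that TSS belongs to a long non-coding RNA. These 74 regions had a median GC content of 57.0% at the summit, compared with 50.7% in the 602 regions without a RefSeq TSS within 10 kb. The description as far from genes holds on both annotations for 567 regions (69.8%), which neither overlap a RefSeq transcript nor lie within 10 kb of a RefSeq TSS. Several regions named below are not among them. The 3 Btg2 regions lie 78, 223 and 1938 bp from the RefSeq TSS of Gm19497, the highest Thrb region 136 bp from that of Gm32269, the 2 regions upstream of Fos 2381 and 3401 bp from that of Gm38543, and a RefSeq TSS falls inside the Chd7 region and the highest Ezh2 region. The named regions of Lhx2, Dct, Sox17, Pdia4, Tenm4, Myh7, Trim27, Clvs1, Cux2 and Tmem29, the second Ezh2 region and the Ankrd33b region at chr15:31409259-31409821 also overlap a RefSeq transcript or lie within 10 kb of a RefSeq TSS.

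Just inside the distance limit were a region 10066 bp upstream of Myh7 and one 10075 bp upstream of Trim27, both called in 4 lists. Just outside it were regions 9977 bp and 9964 bp from the predicted genes Gm22097 and Gm49313, called in 5 and 4 lists. Below the limit of 4 lists, 309 regions met the position criteria and were called in 3. Their median width was 537 bp and their median fold percentile 38.6, compared with 632 bp and 35.6 for the 215 regions called in 4 lists.

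Peak height was read from the fold enrichment of each list, the authors' ratio of the fragments at a summit to the local background. Because depth differed between lists (mean background 87.4 to 173 fragments per 10000 bp, 16195 to 36509 peaks), the highest fold of a region in a list was expressed as its percentile among all peaks of that list. Control replicates 1 to 3 called 763, 705 and 802 of the 812 regions, and 4xIOP replicates 1 to 3 called 704, 748 and 476. 4xIOP replicate 3, the list with the fewest peaks, was the one that lacked 170 of the 244 regions called in 5 lists. Of the 215 regions called in 4 lists, 131 were called in 2 lists of each group. There were 81 called in 3 control lists and 1 4xIOP list, and 3 called in 1 control list and 3 4xIOP lists. 4xIOP replicate 3 lacked 166 of the 215, and control replicate 3, the list with the most peaks, lacked 5. Peaks in the intergenic regions were 3.88, 4.00 and 2.37% of all peaks of the control lists and 3.84, 3.97 and 3.25% of those of the 4xIOP lists. The call pattern was not counted over all recurrent regions, so the lean to control is not read as a trait of these regions.

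In the 353 regions called in all 6 lists, the control lists (replicates 1 to 3) had median fold percentiles of 51.2, 48.3 and 66.5, and the 4xIOP lists had 48.5, 58.4 and 40.3. The highest value was that of control replicate 3 and the lowest that of 4xIOP replicate 3, and the other 4 lists overlapped between the groups. The means were 55.3 ± 9.78 in control and 49.1 ± 9.06 in 4xIOP (SD, n = 3), a difference of -6.28 that was within the spread between lists (two-sided exact permutation p = 0.5, smallest possible 0.1). The sign of this difference turned when each list was cut to the same number of top peaks (40.8 in control, 44.5 in 4xIOP). Such p-values measure the spread between these single retinas. The median covered width of the same regions was 648, 542 and 841 bp in the control lists, against 560, 609 and 410 bp in the 4xIOP lists. The means of 677 ± 152 and 526 ± 103.7 bp (SD, n = 3) did not differ beyond the spread between lists either (exact permutation p = 0.3). The difference of -151 bp was -53.3 bp without control replicate 3 and -55.5 bp without 4xIOP replicate 3.

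**Figure D1:**
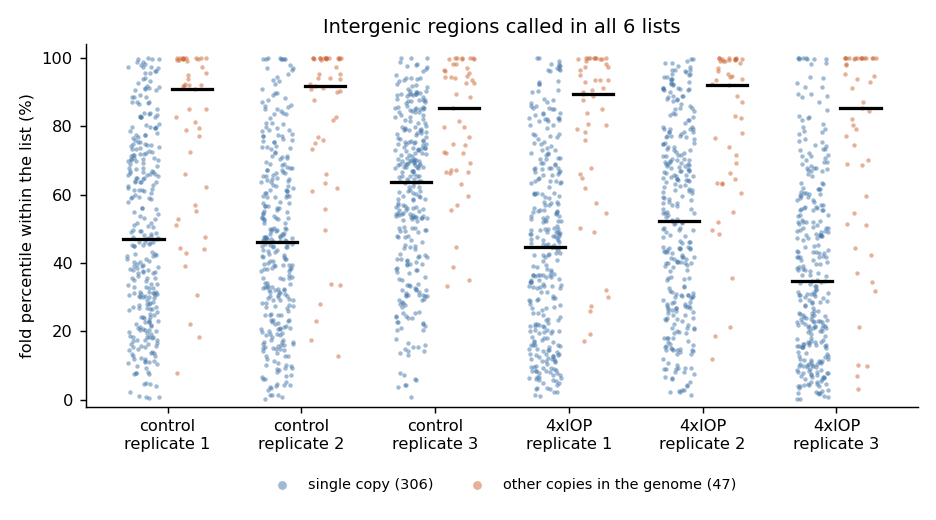
Fold percentile (y axis, %) of the 353 intergenic regions called in all 6 lists, 1 point per region and list (x axis), with black bars at the medians. The 306 regions of unique summit sequence spread over the whole range, and the medians of the 47 regions with other genomic copies lie between 85.3 and 91.9 in every list.

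The intergenic regions stood higher than distal regions inside genes. As a comparator, 1192 recurrent regions in gene bodies were taken that also lay more than 10 kb from any TSS, 449 of them called in all 6 lists. Within each list, the median fold percentile of the intergenic regions exceeded that of the gene-body regions, by 19.2, 15.9 and 18.2 points in the control lists and by 20.1, 24.8 and 16.4 points in the 4xIOP lists. Both sets were taken from regions called in all 6 lists, so that the same calls selected them. The mean difference was 19.1 ± 3.23 points (SD over 6 lists, higher in 6 of 6, two-sided exact sign-flip permutation p = 0.031, adjusted over 6 such comparisons p = 0.031, the smallest that 6 lists can give). The control eyes are contralateral eyes of treated mice, and the labels do not say which mouse each eye came from. If both eyes of the same mice were used there are 3 independent animals, for which the smallest p would be 0.25. This limit applies to every sign-flip p over the 6 lists. Compared with the 6954 regions that held a TSS and were called in all lists, the intergenic regions were lower in 6 of 6 lists, by 25.5 ± 5.22 points (exact sign-flip permutation p = 0.031). They were also wider than the gene-body regions, by 49.0 ± 20.0 bp in covered width (exact sign-flip permutation p = 0.031).

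Base composition followed the same order. The median GC content of the 300 bp summit window was 51.3% in the 812 regions, 50.3% in the distal gene-body regions and 67.3% in the 8914 recurrent regions at a TSS. The ratio of observed to expected CpG dinucleotides, which is high in CpG islands, had medians of 0.25, 0.20 and 0.81. There were 87 intergenic regions (10.7%) with at least 55% GC and a ratio of at least 0.6, compared with 2.77% of gene-body regions and 76.3% of regions at a TSS. Both criteria were met by 22 of the 74 intergenic regions with a RefSeq TSS within 1 kb (29.7%). They were met by 53 of the 602 without a RefSeq TSS within 10 kb (8.80%), and by 72 of the 730 of unique sequence (9.86%). The gene-body regions were not split by RefSeq. Among regions called in all 6 lists, the highest CpG-rich one of unique sequence was 32.2 kb upstream of Pum2, which encodes an RNA-binding translational repressor. Its folds were 7.66, 10.8 and 13.7 in the control lists and 7.74, 7.50 and 11.99 in the 4xIOP lists. The spread within each group exceeded the difference between them.

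Many of the highest regions were not of unique sequence. The 100 bp at each summit were searched against the genome, and 82 of the 812 regions (10.1%) had at least 1 other copy of 95% identity or more over 95% of the length, compared with 47 of 1192 gene-body regions (3.94%). The share was 5.58% of regions called in 4 lists, 9.43% in 5 and 13.3% in 6. There were 43 regions with 10 or more copies and 15 with 1000 or more. Regions with copies were narrow, with a median width of 476 bp compared with 816 bp, and had a median of 46.3% of their summit window marked as repeat, compared with 7.67%. Their median fold percentile was 80.3, compared with 39.8 for regions of unique sequence. Whether reads of these copies can be placed uniquely was not measured, and how multiply placed reads were treated is not given in the sources used here. The difference from gene-body regions was 15.9 ± 2.701 points when only regions of unique sequence were compared (306 and 423 regions, exact sign-flip permutation p = 0.031).

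**Figure D2:**
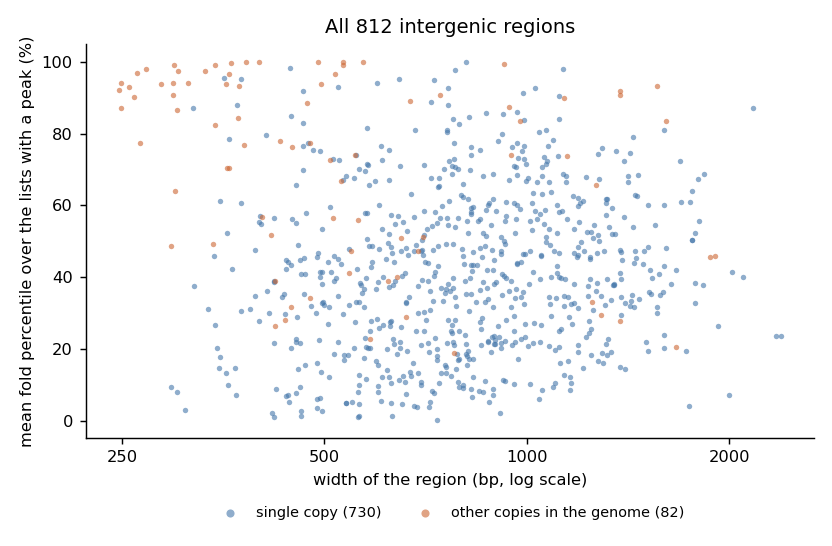
Width (x axis, bp, log scale) against the mean fold percentile over the lists with a peak (y axis, %) for all 812 regions, 1 point each. Most points in the upper left corner, narrow and high, are regions with other copies in the genome, whose median width was 476 bp.

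Of the 10 regions with the highest mean fold percentile, 9 had other copies. The highest, on chromosome 12 (chr12:3109737-3110225), had folds of 27.9, 26.1 and 34.5 in the control lists and 27.4, 27.2 and 28.7 in the 4xIOP lists, and its summit sequence occurred 130 times in the genome. The second lay 10.2 kb upstream of Il23r (chr6:67502007-67502388), was marked as repeat over 100% of its window and had more than 1000 copies. Its folds were 21.9, 27.4 and 19.6 in control and 20.6, 18.9 and 30.3 in 4xIOP, so that control replicate 2 and 4xIOP replicate 3 stood above the other 4 lists. The same pair of lists stood apart over all 47 repeated regions called in every list. Their median fragment number at the summit was 61.0 and 45.0 in control replicate 2 and 4xIOP replicate 3, which is 1.49 and 1.55 times that of the unique regions of the same list. In the other 4 lists this ratio was 0.85 to 1.05. On chromosome Y, where 8 of 10 regions had copies, the median summit fragments were 67.0 and 44.5 in these 2 lists and 20.0 to 26.5 in the other 4. The pair also stood above the other 4 lists at some regions of unique sequence. The region nearest to Gdi2 had 66, 143 and 61 summit fragments in control and 55, 40 and 112 in 4xIOP. The Pum2 region did not show it, with 37, 60 and 114 in control and 42, 34 and 52 in 4xIOP. Over all unique regions called in every list, the medians were 39, 41 and 60 in control and 35, 39 and 29 in 4xIOP. The part of repeated sequence in these values was not tested.

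Of the other repeated regions among the 10, the one 35.3 kb upstream of Pak3 on chromosome X had 3 copies and folds of 16.4 to 20.05. The region nearest to Gm8797 had 15 copies and folds of 12.97 to 21.4, highest in 4xIOP replicate 3, and the one nearest to Sel1l had 780 copies and 9.225 to 17.3, highest in control replicate 2. The regions nearest to Chl1 and Gm6020, with 3 and 2 copies, had folds of 10.6 to 15.7 and 8.50 to 14.5, and a second Ezh2 region with 14 copies had 8.30 to 11.6. In all 6 of these regions the control and 4xIOP folds overlapped.

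The only region of unique sequence among the 10 lay 164 kb upstream of Gdi2 (chr13:3372902-3373712), with folds of 15.04, 16.4 and 16.5 in control against 15.6, 11.3 and 15.9 in 4xIOP. The nearest gene is named here for position, and which gene an intergenic region acts on was not measured.

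The regions were spread over 608 nearest protein-coding genes, of which 466 were nearest to 1 region and 14 to 4 or more. When regions were stitched across the gap length commonly used for super-enhancers, 262 regions (32.3%) fell into 117 groups of 2 or more. The 5 genes nearest to most regions were Pdia4 (9 regions), Tbc1d22a (6), Ankrd33b (5), Ezh2 (5) and Zfy1 (5). The Pdia4 and Ezh2 regions lie in the interval between these genes on chromosome 6, where 9 Pdia4 regions covered 3662 bp of a 28.9 kb span. All 14 of them had between 7 and 17 copies of their summit sequence, the region itself included. The highest was chr6:47682041-47682610, 86.7 kb upstream of Ezh2, with folds of 12.9, 14.2 and 14.9 in control against 13.97, 10.8 and 15.4 in 4xIOP. The highest of the Pdia4 regions, chr6:47753206-47753503, had folds of 5.79, 7.16 and 8.77 in control against 5.96, 6.93 and 7.09 in 4xIOP.

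The groups beside Tbc1d22a and Ankrd33b were of another kind. All 6 regions of Tbc1d22a were of unique sequence and lay 338 to 622 kb downstream of it, and the highest, chr15:86857656-86859322, was 1667 bp wide with folds of 3.48 to 4.31. The regions of Ankrd33b began 27.8 kb upstream of it and were low, with mean fold percentiles of 1.28 to 16.6. At the highest of them, chr15:31395504-31396779, the folds were 2.65, 2.87 and 2.86 in control and 3.14, 3.23 and 3.28 in 4xIOP, and the groups did not overlap. Ranked within each list, all 3 4xIOP values were above all 3 control values at 454 (4.31%) of the 10529 union regions called in every list. Of the 5 Zfy1 regions on chromosome Y, the highest (chrY:258947-259469) was the one of unique sequence, with folds of 6.02 to 7.82.

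The nearest protein-coding genes were compared with 12 gene lists written for the cell types and pathways of the retina. There were 29 regions (3.57%) whose nearest gene was in any list, compared with 28 of 1192 gene-body regions (2.35%), and the lists hold 1.41% of all protein-coding genes. The list of AP-1 and immediate early genes had the most regions, 12 (1.48%), compared with 4 gene-body regions (0.34%). They lay beside 6 of its 28 genes: Fos (4 regions), Btg2 (3), Nr4a1 (2), and Klf4, Npas4 and Egr1 (1 each). Fos, Btg2 and Npas4 are shorter than 10 kb, so their own bodies cannot hold a region more than 10 kb from a TSS. The counts of this and the other lists were not adjusted for gene length. They are a description, and an excess of intergenic regions beside immediate early genes was not tested. Of these 12 regions, 9 were called in all 6 lists, and all 12 were of unique sequence. Photoreceptor genes had 7 regions (Thrb 3, Aipl1 2 and Tulp1 2), compared with 17 gene-body regions. The list of amacrine and horizontal genes had 3 (Slc6a9 2, Th 1), ganglion cell genes 2, NF-kB, C/EBP and STAT genes 2 (Nfkbia, Tnfaip3), Mueller glia and eye field genes 1 shared region (Lhx2), pigment epithelium genes 1 (Dct) and endothelial genes 1 (Sox17). Bipolar genes, senescence and p53 genes, and microglia and immune genes had 0. When the nearest gene on either side was counted, bipolar genes had 4, microglia and immune genes 2, senescence and p53 genes 0, photoreceptor genes 11 and immediate early genes 14. Amacrine and horizontal genes then had 6, ganglion cell genes 5, eye field genes 4 and Mueller glia genes 3, and the remaining lists were unchanged.

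The most prominent of the immediate early regions was downstream of Fos, the partner of JUN in the AP-1 dimer. It spanned chr12:85485326-85486046 and lay 10.4 kb from the nearest annotated Fos TSS. Its folds were 8.69, 4.52 and 7.60 in the control lists and 6.52, 7.48 and 6.91 in the 4xIOP lists, in the order of the replicates. Control replicate 2 was the lowest and the other 5 lists lay between 6.52 and 8.69, with the 4xIOP values inside the control range. The highest peak within 2.5 kb upstream of the Fos TSS had lower folds, at 3.67, 3.63 and 3.97 in control and 3.81, 3.90 and 3.56 in 4xIOP. A neighbouring region 11.3 kb from that TSS was called in 4 lists, all 3 control lists and 4xIOP replicate 1.

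Upstream of Fos, 2 regions were called in every list. The outer one, chr12:85454432-85455255, had folds of 4.68, 4.61 and 5.11 in control against 4.90, 5.87 and 4.70 in 4xIOP. The inner one, chr12:85455452-85456234, had 4.56, 3.73 and 4.61 in control and 3.93, 4.14 and 4.47 in 4xIOP. At neither did the groups separate. Both overlap the RefSeq element VISTA enhancer mm260, a sequence tested in transgenic mouse embryos and recorded as active in the heart.

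**Figure D3:**
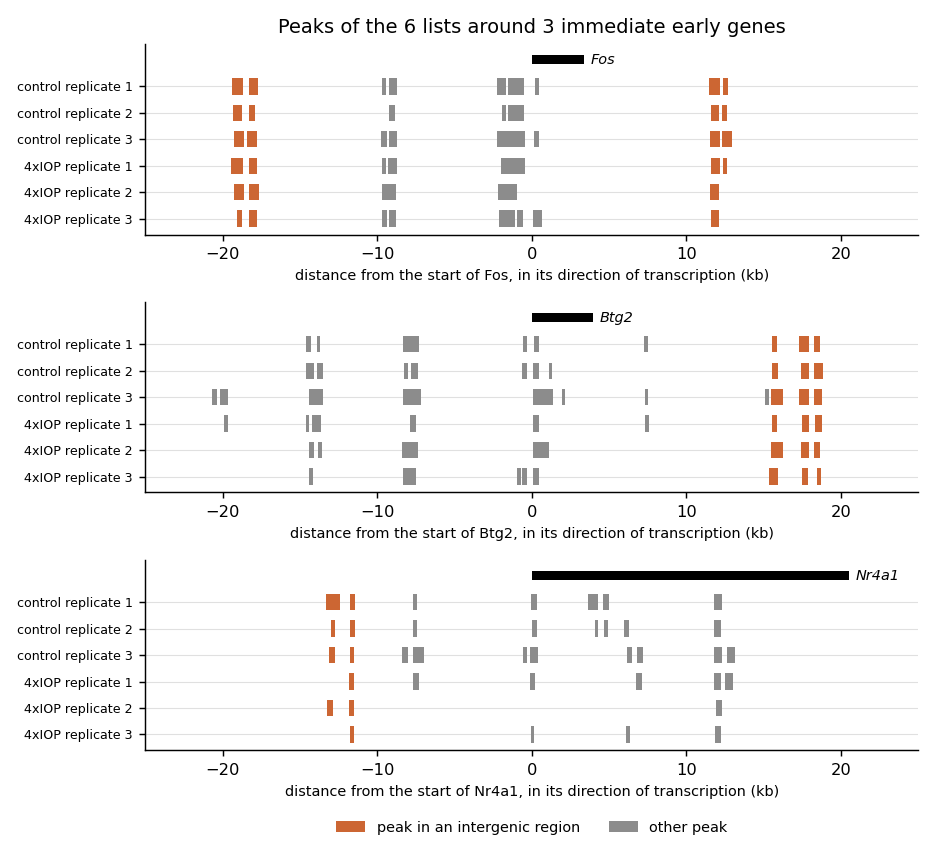
Peaks of the 6 lists (rows) within 25 kb of the start of Fos, Btg2 and Nr4a1, by distance in kb along the direction of transcription, with each gene as a black bar. Peaks that belong to the intergenic regions are in orange and occur in at least 4 lists each, and other peaks are in grey.

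Btg2, an antiproliferative gene induced by p53 and by neuronal activity, had 3 regions between 15.3 and 18.3 kb downstream, each called in all 6 lists. They were low, with mean fold percentiles of 5.67, 24.97 and 2.288. At the middle one, chr1:134061170-134061871, the folds were 3.48, 3.02 and 3.30 in control and 3.09, 3.39 and 3.46 in 4xIOP. Upstream of Nr4a1, which encodes an orphan nuclear receptor, the region at chr15:101242444-101242837 had folds of 4.10, 3.97 and 2.74 in control against 4.30, 3.42 and 2.85 in 4xIOP. These values overlapped as well. Npas4, a transcription factor of active neurons, had 1 region called in 4 lists, at folds of 3.38 and 3.89 in control replicates 1 and 3 and 4.93 and 3.25 in 4xIOP replicates 1 and 2. Klf4, a zinc finger factor, had a region 118 kb upstream with 5.04, 5.02 and 5.68 in control and 4.98, 5.77 and 4.77 in 4xIOP, and Egr1, a zinc finger factor induced by neuronal activity, had one 25.8 kb downstream with 4.54, 4.09 and 5.44 in control and 4.91, 5.23 and 5.11 in 4xIOP. The groups overlapped at both.

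The shared region of the eye field and Mueller glia lists lay 24.9 kb downstream of Lhx2 (chr2:38378732-38379683), a LIM homeodomain factor of the eye field and of Mueller glia. Its folds were 7.23, 4.58 and 7.21 in control and 4.74, 5.53 and 4.69 in 4xIOP. Control replicates 1 and 3 were above the other 4 lists and control replicate 2 was below them. The highest photoreceptor region lay 26.8 kb upstream of Thrb, which encodes the thyroid hormone receptor of cones, and had folds of 3.68 and 4.25 in control replicates 1 and 3 and 3.24 and 5.19 in 4xIOP replicates 1 and 3. The photoreceptor regions called in every list were lower, for example one 39.4 kb from Aipl1, a chaperone of the phototransduction phosphodiesterase, with 3.72, 2.75 and 4.11 in control and 3.20, 3.70 and 3.55 in 4xIOP. The region 26.5 kb downstream of Th, the rate-limiting enzyme of dopamine synthesis, was absent from the list of 4xIOP replicate 3 and had folds of 3.26 to 5.94 in the other 5. At Nfkbia, the inhibitor of NF-kB, a region 10.2 kb downstream (chr12:55479985-55481598) had 4.41, 3.18 and 4.32 in control and 3.86, 5.22 and 3.58 in 4xIOP.

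The lists of pigment epithelium and of endothelial and pericyte genes had 1 region each. The Dct region was at folds of 3.55 to 5.02 and the Sox17 region at 3.76 to 4.79, and both were called in 5 lists, without 4xIOP replicate 3. The retina label was checked on the promoters of marker genes (2.5 kb on either side of a TSS). The photoreceptor genes Nrl, Pde6b, Gnat1, Sag and Rcvrn were marked in 6 lists and Crx in 5, and of the cone markers Gnat2 was marked in 1 and Arr3 and Opn1sw in 0. Of 5 microglia markers 0 were marked in any list, and the same was true of 3 of 4 endothelial and pericyte markers (Kdr was marked in 2 lists) and 3 of 4 pigment epithelium markers (Mitf was marked in 5). Of 5 bipolar markers 1 was marked in 4 or more lists, as were 1 of 6 amacrine and horizontal, 0 of 5 ganglion cell and 1 of 4 Mueller glia markers.

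The annotation itself holds some tested enhancers. RefSeq records an enhancer element at 21 of the 812 regions (2.59%), in 17 distinct elements. All are from the VISTA collection of sequences assayed in mouse embryos. The overlap was not counted for gene-body regions or for all union regions, so this share and the tissues below are a description only. Activity is recorded in the midbrain for 10 of the regions, in the forebrain for 8 and in the heart for 7, and in the eye for 0. The 3 Btg2 regions share the element mm1445, recorded as active across the embryonic nervous system. Of the others, 2 regions upstream of Pias1 (mm1509) and 2 downstream of Bahcc1 (mm1481) share an element. These records concern embryos and were made at other ages than the retinas profiled here.

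Motifs were searched on both strands of the 300 bp summit windows. They were TAATCC (CRX and OTX2 core), TAATTA (paired and LIM homeodomain core), TGCTGA (NRL core), CAGATG (neurogenic E-box), CAGCTG (symmetric E-box), AGGTCA (nuclear receptor core), CCGGAAG (ETS core), GGGCGG (GC box), TGANTCA (AP-1), TTCCNGGAA (STAT), TTGCNNAA (C/EBP), ACAATG (SOX), GTTGCCA (RFX core) and TGACGTCA (CRE), and MEF2, CTCF, NF-kB and SRF by name. Matches to different motifs were allowed to overlap. A match describes letters in a window and not a bound site.

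The ratio of the intergenic to the gene-body share had a 95% interval, for counting error only, that left out 1 for 3 of the 18 motifs. These were the GC box (1.85, 1.44 to 2.38), CTCF (2.09, 1.12 to 3.90) and the symmetric E-box (0.83, 0.70 to 0.99). Without repeated summit sequence the ratios were 1.91, 1.26 and 0.88, and in a 500 bp window 1.70, 2.14 and 0.95. The GC box, bound by SP and KLF factors, was present in 121 intergenic windows (14.9%, 95% Wilson interval 12.6 to 17.5%), compared with 8.05% of gene-body, 58.5% of TSS and 27.2% of all windows. CTCF motifs, recognised by the insulator protein, were present in 2.83% of intergenic and 1.34% of gene-body windows, and in 1.64% of the intergenic windows of unique sequence. The CRX and OTX2 core was in 8.50% (interval 6.77 to 10.6%) of intergenic, 10.99% of gene-body, 3.37% of TSS and 8.81% of all windows, and the NRL core in 23.4, 26.3, 14.4 and 21.6%. The neurogenic E-box was in 19.1, 22.3, 9.52 and 18.5% and the nuclear receptor core in 22.8, 19.4, 11.4 and 16.9%.

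AP-1 sites were in 72 intergenic windows (8.87%, interval 7.10 to 11.02%), 9.48% of gene-body, 2.89% of TSS and 6.29% of all windows. SOX, C/EBP and NF-kB motifs were in 11.9, 11.2 and 7.39% of intergenic windows and in 11.7, 10.1 and 6.38% of gene-body windows. The symmetric E-box was in 19.3 and 23.2%, the paired and LIM homeodomain core in 5.17 and 4.87%, the ETS core in 2.96 and 1.93%, and the RFX core in 2.46 and 3.52%. MEF2, STAT, SRF and CRE were rare, in 1.85, 1.601, 1.35 and 0.12% of intergenic windows.

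**Figure D4:**
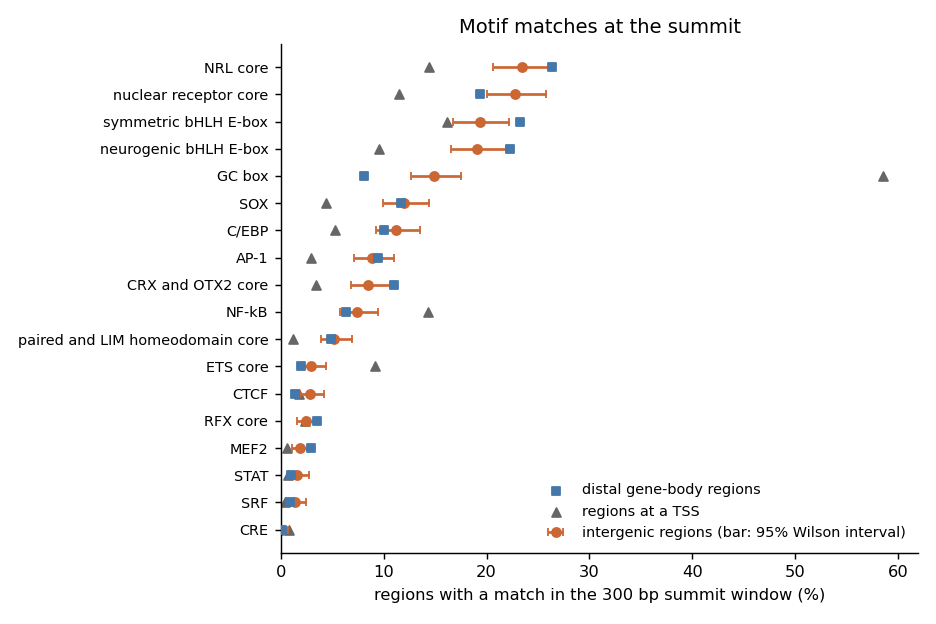
Share of regions (x axis, %) with a match to each of 18 motifs (y axis) in the 300 bp summit window, for the 812 intergenic regions (orange, bars are 95% Wilson intervals), 1192 distal gene-body regions (blue) and 8914 regions at a TSS (grey). At the GC box the intergenic interval of 12.6 to 17.5% lies above the gene-body share of 8.05% and far below the 58.5% at a TSS.

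The last comparison asked whether recurring pressure elevation shifted the relative height of single regions. For the 10529 union regions called in all 6 lists, the folds of each list were converted to normal scores by rank and tested with limma. Of the 353 intergenic regions tested, 0 passed an adjusted p of 0.05 (background 0%, 0 of 10529). At an unadjusted p under 0.05, 3 were higher in 4xIOP (background 1.5%) and 6 were lower (background 1.67%), which are 0.85% and 1.7% of the 353 regions. The 3 4xIOP scores were all above the 3 control scores at 19 regions (5.38%, background 4.31%) and all below them at 14 (3.97%, background 4.05%). These shares are near the background. The unadjusted counts moved with the scale. On centred log2 folds 12 were higher (background 1.85%) and 6 lower (background 1.53%), which are 3.40% and 1.7% of the 353 regions, and on recovered fragments 12 were higher (background 1.93%) and 3 lower (background 1.16%). Without 4xIOP replicate 3, 15 of 523 regions tested were higher (2.87%, background 2.72%) and 6 lower (1.15%, background 3.02%).

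**Figure D5:**
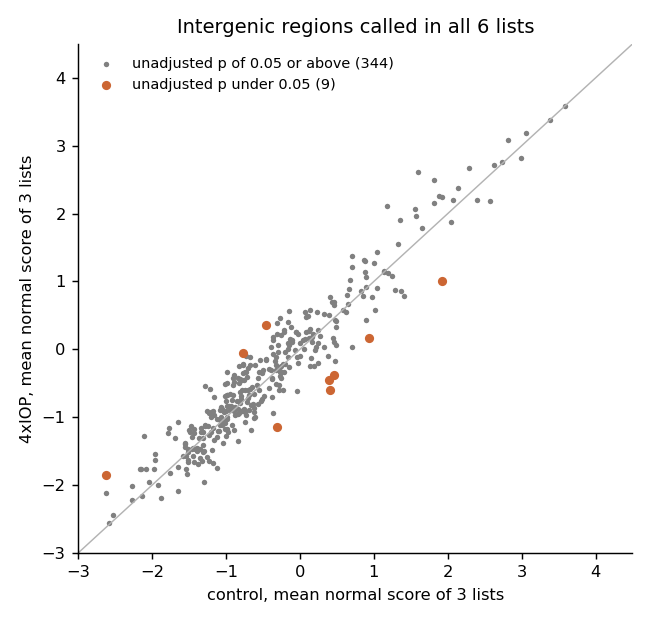
Mean normal score of the 3 control lists (x axis) against that of the 3 4xIOP lists (y axis) for the 353 intergenic regions called in all 6 lists, with the line of equal scores. The 9 regions with an unadjusted limma p under 0.05 are in orange, and 0 regions pass after adjustment.

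The 3 regions with the smallest p among those higher in 4xIOP were chr15:31409259-31409821, 41.5 kb upstream of Ankrd33b, chr4:9136024-9137020, nearest to Clvs1, and chr5:122061863-122062896, nearest to Cux2. At the Ankrd33b region the folds were 2.44, 2.08 and 2.23 in control and 2.60, 2.56 and 2.92 in 4xIOP, a difference of 0.77 ± 0.31 (SE) in score (limma adjusted p = 0.9999). At the Clvs1 region they were 4.70, 3.29 and 6.17 in control and 5.51, 6.07 and 4.65 in 4xIOP, and the groups overlapped. At the Cux2 region they were 3.92, 4.204 and 3.57 in control and 4.77, 4.71 and 4.71 in 4xIOP. At the Ankrd33b and Cux2 regions, every 4xIOP fold was above every control fold.

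The 3 lower in 4xIOP were chr1:39499130-39500022, nearest to Tbc1d8, chr4:133910083-133911543, nearest to the kinase gene Rps6ka1, and chrX:150477994-150478592, nearest to Tmem29. At the Tbc1d8 region the folds were 4.59, 4.44 and 5.14 in control and 3.41, 3.31 and 3.25 in 4xIOP, a difference of -0.83 ± 0.30 (SE) in score (limma adjusted p = 0.9999). The fold percentiles there were 65.98 ± 3.81 for control and 23.4 ± 6.52 for 4xIOP (SD, n = 3). The Rps6ka1 region had 4.96, 5.09 and 9.08 in the control lists, against 4.82, 3.05 and 4.25 in the 4xIOP lists. At the Tmem29 region the control folds were 8.24, 7.76 and 14.3 and the 4xIOP folds 5.98, 6.98 and 6.73. At all 3 of these regions every 4xIOP fold was below every control fold. All 6 of the regions named for their limma p were of unique sequence, and none passed the adjustment over all regions.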

How the data were processed

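H3K27ac ChIP-seq (antibody ab4729) of 6 single retinas was deposited by the authors as 1 narrowPeak list per retina. The deposited fold (a ratio of summit fragments to local background), the −log10 p-value and the −log10 q-value were made by the authors' peak caller, and the deposited score was not used. The submitters' processing notes name STAR 2.7.8a, MACS2, HOMER, edgeR, bedtools 2.29.2 and mm10 without their roles. Groups came from the labels. The lowest −log10 q of the lists was 1.31 to 1.40.

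The regions and lists of genes and motifs were chosen with earlier results of these data known. CRE, SRF and the within-list comparisons were added after the data were seen. The GENCODE vM21 comprehensive annotation (GRCm38) was used. Whole summit fragments were recovered from fold and p for at least 99.99% of peaks (tolerance 0.001 on the −log10 scale), and the interval of a share covers counting error only. Copies were sought with BLAST 2.17.0 (at most 200 hits per chromosome were kept, so high copy numbers are lower limits). Tests were limma 3.58.1 in R 4.3.3 with Benjamini-Hochberg adjustment and exact permutation tests in SciPy 1.17.1, two-sided. Peak heights were compared as fold percentiles and normal scores. Single retinas are the replicates.

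Named regions were the 10 with the highest mean fold percentile, the 3 of smallest limma p in each direction, the 3 widest, the 3 farthest from a TSS, the highest per gene list (that of the ganglion cell list is not reported here), the highest beside each of the 5 genes with most regions, and 2 on either side of the distance limit. The other immediate early regions, the Pum2 and Aipl1 regions and the enhancer overlaps were named after their values were seen. Of the 310 genes written into the lists, 309 are in the annotation.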

Additional observations from a re-analysis of the deposited data

How the results depend on the processing

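The number of intergenic regions followed its criteria. It was 353 when a peak in all 6 lists was required, 411 with a TSS distance of 20 kb, 474 when peaks had to cover at least 50% of the region, 503 with peaks of −log10 q of at least 5, 512 with the same number of top peaks in each list, and 1668 when only protein-coding genes were considered. Alternatives chosen after seeing the data gave 875 with the GENCODE basic annotation, 567 when RefSeq genes were also avoided, 730 without repeated summit sequence and 606 to 762 when 1 list at a time was left out. The difference in median fold percentile was -10.5 to -1.10 without 1 list each, and with the same number of top peaks it turned to 3.67 (control 40.8, 4xIOP 44.5, exact permutation p = 0.5). The cause was not tested. Without control replicate 3 it was -1.10 and without 4xIOP replicate 3 it was -3.79. The difference in median covered width was -209 to -53.3 bp, with -53.3 bp without control replicate 3 and -55.5 bp without 4xIOP replicate 3. limma called 0 intergenic regions under every alternative tried, including leaving out each list, while the number at an unadjusted p under 0.05 ranged from 4 to 21, which is 1.84% of 217 and 4.02% of 523 intergenic regions tested, beside 3.29% and 5.73% of all regions in the same settings. The intergenic share was above that of all regions on centred log2 folds (5.10% against 3.38%), on recovered fragments (4.25% against 3.09%) and without control replicate 1 (2.74% against 2.34%) or 2 (4.09% against 3.19%), and below it in the other settings. None of these settings grouped the lists by the names they carry. With the nearest gene on either side, 50 regions had a gene of the lists. The ratio of motif shares to gene-body regions left its interval for the NRL core in a 200 bp window (0.73) and for the neurogenic E-box in regions called in all 6 lists (1.03), among 90 alternatives.

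Same-numbered lists did not deviate together (correlations -0.02, -0.06 and -0.15), and lists with different numbers had correlations of -0.16 to 0.18, with 0.18 for control replicate 2 with 4xIOP replicate 3 and for control replicate 3 with 4xIOP replicate 1. With the replicate block, limma called 0 regions and the differences of -6.28 points and -151 bp had exact sign-flip permutation p = 0.75 and p = 0.5.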
